A study of Homo sapiens with 12 samples.

Results

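The 8 genes described here are the basal keratins KRT5, KRT14 and KRT15, the keratin KRT17, and the hyperproliferative keratins KRT6A, KRT6B, KRT6C and KRT16. They were taken by gene name from a table of RNA-seq counts with 58735 gene lines, and each name matched 1 line. The libraries came from CAL-27 and SCC-15, 2 established human lines of oral squamous cell carcinoma. Each line was studied with a control short hairpin (shControl, whose genotype is labelled WT and whose treatment is labelled untreated) and after knockdown of TTK, a kinase of the mitotic spindle checkpoint, by a short hairpin (shTTK). There were 4 groups of 3 libraries, all labelled as batch 1. The labels say nothing of the hairpin sequences, of how many hairpins were used or of whether libraries of a group came from separate cultures. The p-values thus measure the spread between these libraries, largely pooled across genes, and that spread may be technical. The members were chosen by measured changes: the rise of KRT14, KRT5, KRT6A and KRT15 in CAL-27 and the fall of KRT14 in SCC-15 with shTTK were in view when the list was drawn up. The knockdown changes are therefore given as a description. No p-value is printed for them, and the calls counted below are part of that description, not a test.

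Keratins form the intermediate filaments of epithelial cells, and each filament is built from pairs of 1 type I and 1 type II keratin. In stratified epithelia, including the lining of the mouth, the basal layer is known for the pair KRT5 (type II) and KRT14 (type I), with KRT15 as a further type I keratin of basal cells. KRT6A, KRT6B and KRT6C (type II) and KRT16 and KRT17 (type I) are induced in wounds, in hyperproliferative skin disease and in squamous tumours, where KRT6 proteins pair with KRT16 or KRT17.

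The 4 type II genes lie on chromosome 12 of GRCh38 and the 4 type I genes on chromosome 17, all on the minus strand (GENCODE release 29). In order along chromosome 12 these were KRT6B (52446651 to 52452126), KRT6C (52468516 to 52473785), KRT6A (52487174 to 52493257) and KRT5 (52514575 to 52520687). On chromosome 17 the order was KRT15 (41513743 to 41522529), KRT14 (41582279 to 41586921), KRT16 (41609778 to 41615899) and KRT17 (41619441 to 41624842). The microRNA gene MIR6510 lies within KRT15 on the same strand, and the other 7 members overlap no annotated gene.

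Near-identical copies make the assignment of reads a property of the sequence. Coding sequences of KRT6A and KRT6B are 97.5% identical, with 43 of 1695 bases different, those of KRT6A and KRT6C 97.9%, and those of KRT6B and KRT6C 98.5%. The stretches below are the 60 coding bases in which most positions differ within each set, shown because reads across such bases tell the copies apart. They were read from GENCODE 29 transcripts, 5′ to 3′ on the coding strand. The first 3 cover coding bases 664 to 723 of each KRT6 gene, and capitals mark the 9 positions at which the 3 genes are not all alike.
KRT6A: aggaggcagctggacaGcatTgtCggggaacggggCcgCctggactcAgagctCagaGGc
KRT6B: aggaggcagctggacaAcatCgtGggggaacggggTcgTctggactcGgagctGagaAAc
KRT6C: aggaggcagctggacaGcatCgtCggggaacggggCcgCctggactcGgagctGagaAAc

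Even in this stretch KRT6C differs from KRT6A at 5 positions only. Among the type I genes, KRT14 and KRT16 are 88.5% identical, KRT14 and KRT17 84.8%, and KRT16 and KRT17 79.2%. The stretches of these 3 genes cover coding bases 460 to 519 of KRT14, 466 to 525 of KRT16 and 367 to 426 of KRT17, with the 25 positions that differ within the set in capitals.
KRT14: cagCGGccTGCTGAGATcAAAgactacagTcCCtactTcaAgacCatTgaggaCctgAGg
KRT16: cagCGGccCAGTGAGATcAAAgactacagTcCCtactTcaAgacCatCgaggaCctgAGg
KRT17: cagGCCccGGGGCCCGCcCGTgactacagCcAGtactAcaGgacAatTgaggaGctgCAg

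KRT16 differs from KRT14 here at 4 positions and KRT17 differs from it at 23. Of all stretches of 150 bases (the length of 1 sequenced read end) along each main transcript, 16.5% of those of KRT6C, 12.8% of KRT6B and 9.26% of KRT6A occur without a mismatch in another of the 3 genes. The share was 0.595% for KRT14 and 0.736% for KRT16, and no such stretch was found for KRT5, KRT15 or KRT17. At 75 bases the shares, which include matches of the KRT6 genes to KRT5, were 42.9% for KRT6C, 34.9% for KRT6B and 26.2% for KRT6A. They were 10.01% for KRT14, 9.68% for KRT16, 4.57% for KRT17, 2.44% for KRT5 and 0 for KRT15. The map of identical stretches places them in the 5′ part of the KRT6 transcripts. No source used here says how the authors counted reads that match several genes, so the split among KRT6A, KRT6B and KRT6C, and between KRT16 and its pseudogenes, is uncertain by an amount that was not tested.

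**Figure D1:**
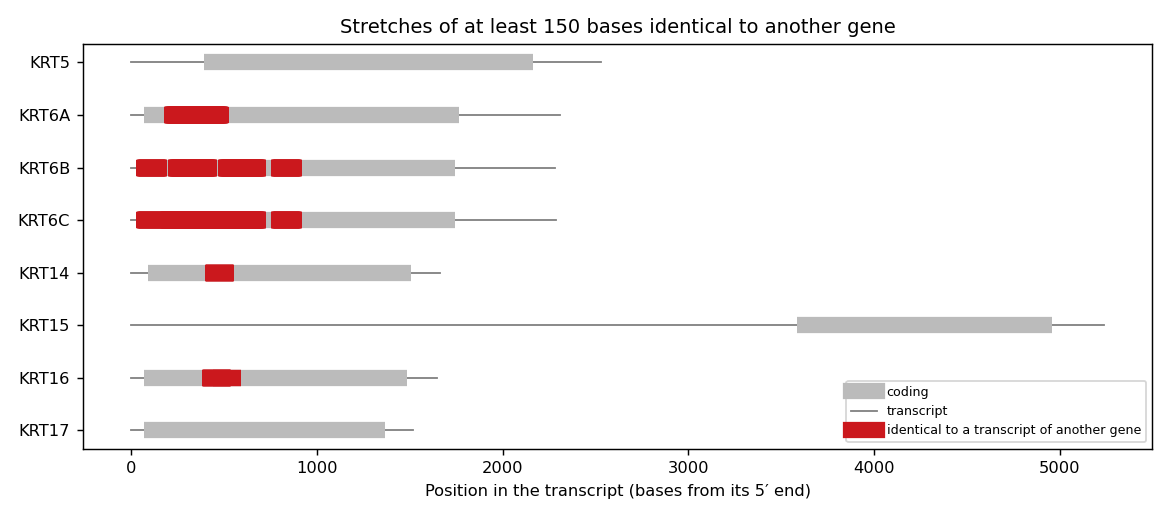
Main transcript of each keratin (horizontal axis, bases from the 5′ end), with the coding part as a grey bar and, in red, stretches of at least 150 bases identical to a transcript of another gene. KRT6C has the most red (16.5% of its 150-base stretches), and KRT5, KRT15 and KRT17 have none.

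Total counts ran from 16176655 to 18484112 per library. TTK itself, at 49.4 ± 3.58 CPM (counts scaled for sequencing depth with TMM factors, mean ± SD, n = 3) in CAL-27 controls and 33.9 ± 1.57 with shTTK, had a log2 fold change of -0.54 ± 0.07 (SE) in CAL-27, and 69.9 ± 2.77 against 30.1 ± 3.80 CPM gave -1.21 ± 0.06 in SCC-15. Each SE here and below was derived from the F statistic of the edgeR fit, as described under data processing. Markers of squamous epithelium (TP63, EPCAM, CDH1, DSP, KRT5 and SFN) were detected in every group. Their summed level was 2634 to 2711 CPM in CAL-27 controls and 3970 to 4040 with shTTK. In SCC-15 it was 5112 to 5242 in controls and 4960 to 5022 with shTTK. KRT5, itself one of the 8 members, was the largest part of this sum in every group, with CAL-27 means of 886 and 1924 CPM. The CAL-27 means of TP63, DSP and SFN were also higher with shTTK. Those of EPCAM (277 and 228 CPM) and CDH1 (451 and 418 CPM) were lower. In SCC-15 the means of KRT5 (2658 and 2204 CPM) and TP63 (277 and 244 CPM) were lower with shTTK. Those of DSP (1113 and 1266 CPM), SFN (910 and 1034 CPM), CDH1 (24.1 and 40.5 CPM) and EPCAM (206 and 210 CPM) were higher. The 7 fibroblast markers summed to 31.9 to 37.6, 41.4 to 42.2, 21.1 to 23.0 and 20.6 to 22.7 CPM in the same order of groups as the squamous sums. These were mostly COL1A1, with DCN at 0 counts in both CAL-27 groups. The 5 leukocyte markers summed to 8.12 to 11.8 and 10.96 to 14.03 CPM in CAL-27, mostly CD14, with PTPRC and CD79A at 0 counts in both groups, and to 0.403 CPM or less in SCC-15. The 4 endothelial markers summed to 102 to 109.9 CPM in CAL-27 controls and 72.9 to 74.998 with shTTK, nearly all from CDH5, and to 2.58 CPM or less in SCC-15. SCC-15 libraries numbered 1 differed from the others of their group by more than those did from each other, with a mean chi-square per gene of 5.62 and 5.96 against 1.98 in controls, and 3.07 and 3.78 against 1.95 with shTTK. Whether any of these moves bear on the keratin changes was not tested. Leaving out both SCC-15 libraries numbered 1 left the number of keratins called lower in SCC-15 at 4 and lowered the number whose change differed between lines from 7 to 6.

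In CAL-27 all 8 keratins were higher with shTTK, and in SCC-15 none was called higher. A gene was called at an adjusted p under 0.05 in edgeR's quasi-likelihood test across 16946 genes. In CAL-27 8 members were called higher and 0 lower, where 27.3% of all genes were called and 11.6% of all genes as higher. In SCC-15 0 were called higher and 4 lower (KRT5, KRT6A, KRT14 and KRT15), where 27.7% of all genes were called and 14.3% as lower. The libraries of the 2 groups did not overlap for 7 members in CAL-27, against 38.4% of all genes, and for 4 in SCC-15, against 38.9%. The median log2 fold change of the 8 members was 1.23 in CAL-27 and -0.06 in SCC-15, and over all genes it was -0.01 and 0. Because the members were chosen for such changes, nothing is read from these counts. The summed counts of the 8 genes made up 0.129% ± 0.00612 of all counts in CAL-27 controls and 0.318% ± 0.00352 with shTTK (SD, n = 3), and 0.632% ± 0.0161 and 0.548% ± 0.00508 in SCC-15. In bulk libraries, fewer cells that express a gene and less RNA per cell cannot be told apart.

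**Figure D2:**
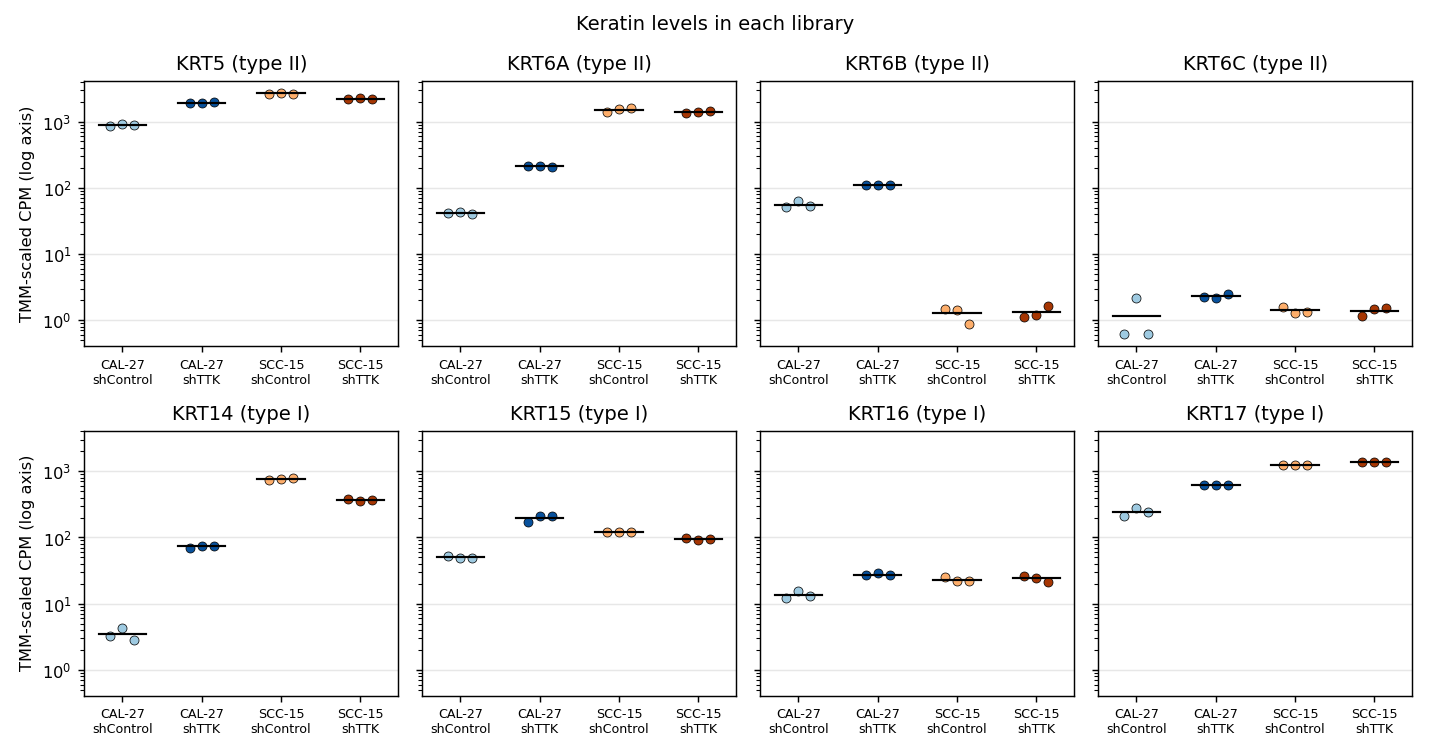
TMM-scaled CPM (log axis) of each keratin in each of the 12 libraries, by group, with type II keratins above and type I keratins below. Points are libraries and lines are group means. In CAL-27 every keratin has a higher mean with shTTK, and KRT14 runs from 3.44 to 763 CPM across the 4 group means.

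KRT5, the type II keratin of basal cells, was at 859, 921 and 878 CPM in CAL-27 control libraries and at 1917, 1898 and 1955 CPM with shTTK. In SCC-15 it was at 2638, 2689 and 2647 CPM in controls and 2207, 2234 and 2173 CPM with shTTK. The groups did not overlap in either line, and the direction was opposite. On the log2 scale KRT5 changed by 1.12 ± 0.03 (SE) in CAL-27 and -0.27 ± 0.03 in SCC-15, a difference of -1.39 ± 0.04 between the lines. With shTTK, CAL-27 reached a mean of 1924 ± 29.3 CPM, below the 2204 ± 30.9 CPM of SCC-15 with shTTK.

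KRT14, the type I partner of KRT5, had the widest range of the 8 on the fold scale. CAL-27 controls held 3.20, 4.33 and 2.79 CPM (56, 79 and 45 counts), and the shTTK libraries held 69.8, 74.5 and 75.2 CPM (1133, 1260 and 1222 counts). In SCC-15 the controls held 729, 767 and 793 CPM and the shTTK libraries 379.6, 358 and 371 CPM. No library of one group reached the range of another. The log2 fold change of KRT14 was 4.40 ± 0.08 in CAL-27 (21.1-fold on the linear scale, rank 9 of 16946 genes from the highest) and -1.05 ± 0.04 in SCC-15 (2.06-fold lower), and the difference between lines was -5.44 ± 0.08. Even after this rise the level in CAL-27 was below that in either SCC-15 group. Over the 21 alternatives the CAL-27 value of KRT14 ran from 4.27 to 4.62, a wider span than its SE.

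KRT15, a type I keratin of basal cells, was at 52.9, 48.3 and 48.9 CPM in CAL-27 controls and at 172, 211 and 209 CPM with shTTK. In SCC-15 it was at 123, 123 and 121 CPM in controls and at 98.3, 93.0 and 95.1 CPM with shTTK. The ranges of the 4 groups did not overlap, and CAL-27 with shTTK was the highest group. Its log2 fold change was 1.98 ± 0.07 in CAL-27 and -0.35 ± 0.06 in SCC-15, with a difference of -2.33 ± 0.09.

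KRT17, a type I keratin induced in wounds and tumours, was at 210.5, 274 and 245 CPM in CAL-27 controls and at 618, 622 and 615 CPM with shTTK. In SCC-15 it was at 1244, 1259 and 1249 CPM in controls and at 1386, 1398 and 1401 CPM with shTTK. It was the only member whose SCC-15 libraries were all higher with shTTK. Knockdown values of KRT17 on the log2 scale were 1.35 ± 0.08 in CAL-27 and 0.16 ± 0.07 in SCC-15, and the difference between lines was -1.19 ± 0.10. The SCC-15 value was not called. It was called in 5 of 21 alternatives: with limma-voom (0.16), with no count filter (0.17), with SCC-15 fitted alone (0.16), and without CAL-27 control library 1 (0.16) or 2 (0.16). The CAL-27 controls spread more widely in KRT17, with an SD of 31.9 CPM, than those of any other group, whose SDs were 3.64 to 7.54 CPM.

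KRT16, the other type I keratin of hyperproliferation, was low. It was at 12.01, 15.6 and 13.0 CPM in CAL-27 controls and 27.0, 28.7 and 26.9 CPM with shTTK. In SCC-15 it was at 25.0, 21.9 and 22.3 CPM in controls and 26.6, 24.7 and 21.2 CPM with shTTK. The groups were apart in CAL-27 and overlapped in SCC-15. The log2 fold change of KRT16 was 1.02 ± 0.09 in CAL-27 and 0.06 ± 0.08 in SCC-15, and the difference was -0.96 ± 0.12.

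KRT6A, the KRT6 gene with the most counts in SCC-15, was at 41.2, 43.3 and 40.7 CPM in CAL-27 controls and at 211, 212 and 207 CPM with shTTK. In SCC-15 it was at 1403, 1556 and 1594 CPM in controls and at 1368, 1393 and 1446 CPM with shTTK. The groups were far apart in CAL-27 and overlapped in SCC-15 through control library 1. For KRT6A the log2 fold change was 2.33 ± 0.04 in CAL-27 and -0.11 ± 0.03 in SCC-15, and the difference was -2.44 ± 0.05. The call in SCC-15 was lost when control library 2 (-0.09), control library 3 (-0.07) or shTTK library 1 (-0.09) was left out.

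KRT6B was at 51.2, 62.0 and 52.7 CPM in CAL-27 controls and at 110.3, 111 and 109.8 CPM with shTTK. In SCC-15 it was at 1.49, 1.43 and 0.880 CPM in controls and 1.11, 1.21 and 1.62 CPM with shTTK. KRT6B was thus well detected in 1 line and near the lower end of detection in the other, with 66 counts over 3 control libraries. The log2 fold change of KRT6B was 1.00 ± 0.06 in CAL-27 and 0.05 ± 0.25 in SCC-15, and the difference was -0.95 ± 0.27. That difference was called in the main analysis and not with limma-voom (-0.93) or without both SCC-15 libraries numbered 1 (-0.70).

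KRT6C, the KRT6 gene with the lowest counts in CAL-27, gave 11, 40 and 10 counts in CAL-27 control libraries and 36, 36 and 41 counts with shTTK. In SCC-15 its sum over each group was 73 counts, with 1.40 ± 0.175 CPM in controls and 1.39 ± 0.195 CPM with shTTK. CAL-27 control library 2 lay within the range of the shTTK libraries, so the groups overlapped in both lines. The log2 fold change of KRT6C was 0.97 ± 0.32 in CAL-27 and -0.01 ± 0.33 in SCC-15. The CAL-27 value was 1.88 when control library 2 was left out, and it was no longer called when control library 1 (0.66), control library 3 (0.68) or shTTK library 3 (0.91) was left out. The difference between lines, -0.98 ± 0.46, was not called, and it was called without CAL-27 control library 2 (-1.88).

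**Figure D3:**
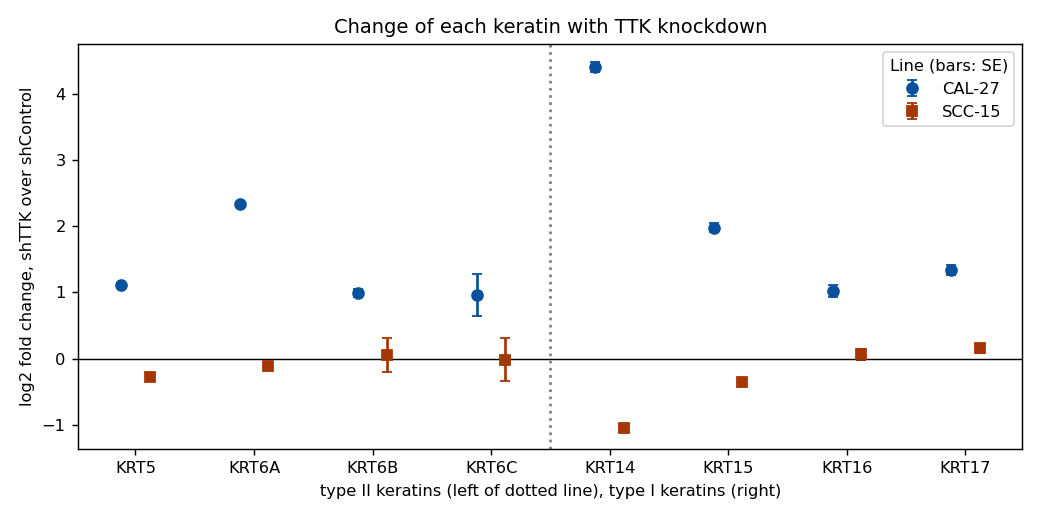
Log2 fold change of each keratin (shTTK over shControl) in CAL-27 (circles) and SCC-15 (squares), n = 3 libraries per group. Bars are SEs derived from the F statistic of the edgeR fit. All 8 CAL-27 values lie between 0.97 and 4.40, and the SCC-15 values lie between -1.05 and 0.16.

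For the difference of the knockdown changes, SCC-15 minus CAL-27, all 8 values were negative, from -5.44 for KRT14 to -0.95 for KRT6B. Of these, 0 were called higher and 7 lower, where 25.4% of all genes were called and 12.1% as lower. Nothing is read from this count, since both knockdown contrasts were in view when the genes were chosen.

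The KRT6 genes differed in makeup between the lines. KRT6A held 44.3%, 40.3% and 43.3% of the summed KRT6 counts in CAL-27 control libraries and 65.2%, 65.1% and 64.8% with shTTK. In the SCC-15 libraries it held 99.8% to 99.9%, with a mean of 99.8% ± 0.0401 in controls and 99.8% ± 0.0251 with shTTK (SD, n = 3). KRT6B held 56.2% ± 1.33 and 34.3% ± 0.176 in the CAL-27 groups, and 0.0843% ± 0.0262 and 0.0931% ± 0.0165 in the SCC-15 groups. The summed counts of KRT6C came to 2.81% of those of KRT6A in CAL-27 controls and 1.09% with shTTK, and to 0.0926% and 0.0993% in SCC-15. Summing the 3 genes, which removes the split between them, gave log2 fold changes of 1.74 ± 0.06 in CAL-27 and -0.11 ± 0.05 in SCC-15. Groups of 3 libraries cannot go below an exact two-sided permutation p of 0.1, so no test of the shares was made.

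The control libraries of the 2 lines were compared next. The changes that led to the choice of genes do not use the line difference, but the control levels of KRT14 in both lines were known. The CAL-27 libraries are also the controls of the changes that were in view for KRT5, KRT6A, KRT14 and KRT15. For these 4 genes it is given as a description, with no p-value. SCC-15 had 6 members called higher and 1 lower, where 76% of all genes were called, 37.8% as higher and 38.2% as lower. Libraries of the 2 lines did not overlap for 7 members, against 77.3% of all genes. Most genes differed between the lines, and nothing is read from the members' counts. KRT6A was 36.3-fold higher in SCC-15, with a log2 difference of 5.18 ± 0.04. KRT6B went the other way, with a log2 difference of -5.44 ± 0.12 (43.4-fold lower). KRT6A was higher and KRT6B lower in 3 of 3 SCC-15 libraries against every CAL-27 control.

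KRT17 (log2 difference 2.36 ± 0.08) and KRT16 (0.77 ± 0.09) were also higher in SCC-15 controls, with no overlap between lines. The KRT16 value was 1.75 when the counts of its pseudogenes were added. KRT5 and KRT15 had log2 differences of 1.58 ± 0.03 and 1.29 ± 0.07, again with no overlap. KRT6C, at 1.15 ± 0.906 against 1.40 ± 0.175 CPM, had a log2 difference of 0.27 ± 0.34 and was not called. Without CAL-27 control library 2 that difference was 1.15 and was called. KRT14 was at 3.44 ± 0.799 CPM in CAL-27 controls and 763 ± 32.1 CPM in SCC-15 controls, a log2 difference of 7.78 ± 0.06.

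Ordering the 4 groups by level gave 1 sequence for KRT5, KRT6A and KRT14: CAL-27 controls lowest, then CAL-27 with shTTK, SCC-15 with shTTK and SCC-15 controls. Neighbouring groups did not overlap for KRT5 and KRT14, and for KRT6A the 2 SCC-15 groups overlapped. KRT17 had the same order with the SCC-15 groups exchanged and no overlap. For KRT15, KRT16 and KRT6C the highest group was CAL-27 with shTTK, which did not overlap the next group in order. For KRT16 the 2 SCC-15 groups overlapped, and with pseudogene counts added both SCC-15 groups exceeded CAL-27 with shTTK. For KRT6C the other 3 groups overlapped, and CAL-27 control library 2 also lay within the highest group. For KRT6B both SCC-15 groups were lowest and overlapped.

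Levels of different genes were compared per kilobase of annotated exon. In CAL-27 controls the leading type II keratin was KRT5, at 206 ± 7.43 CPM per kilobase and 84.2% of the type II sum, and the leading type I keratin was KRT17, at 77.7 ± 10.2 CPM per kilobase and 84.6% of the type I sum. KRT14, the usual partner of KRT5, made up 1.64% of the type I sum there and 11.9% with shTTK. In SCC-15 controls KRT5 (54.4%) and KRT6A (45.5%) shared the type II sum, and KRT17 (52.6%) and KRT14 (43.9%) shared the type I sum. With shTTK in SCC-15, KRT14 made up 25.7% and KRT17 70.6% of the type I sum, while the type II makeup was 51.7% KRT5 and 48.2% KRT6A. The per-length level of KRT15 is low partly by construction, because its annotated exons span 7069 bases for a coding length of 1371. Exon and coding lengths also differ unevenly among the leading genes. They are 4292 and 1773 bases for KRT5, 2928 and 1695 for KRT6A, 3130 and 1299 for KRT17, and 2281 and 1419 for KRT14. The shares of single genes thus depend on the length used, and they were not recomputed with another.

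Summed by type, type II keratins went from 245 ± 10.7 to 569 ± 5.60 CPM per kilobase in CAL-27 and from 1139 ± 37.8 to 994 ± 9.96 in SCC-15. Type I keratins went from 91.8 ± 10.8 to 269 ± 5.05 CPM per kilobase in CAL-27 and from 761 ± 14.5 to 631 ± 3.93 in SCC-15. Both types moved in 1 direction within each line, without overlap between groups. The type II share was 72.8% ± 1.54 in CAL-27 controls and 67.9% ± 0.487 with shTTK. It was 59.9% ± 0.377 in SCC-15 controls and 61.2% ± 0.340 with shTTK, and by coding length the SCC-15 direction turned, with 59.9% and 59.3%.

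**Figure D4:**
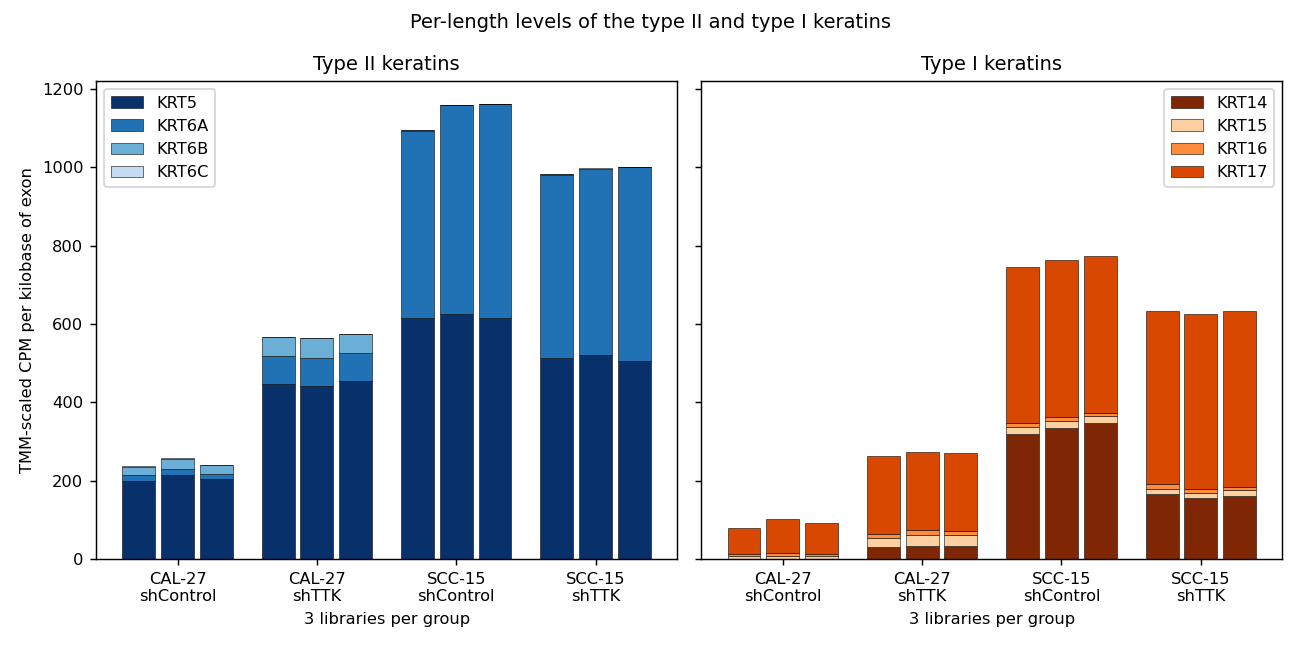
Type II (left) and type I (right) keratins in TMM-scaled CPM per kilobase of exon, stacked by gene, with 1 bar per library and 3 libraries per group. The type II bars average 245 and 569 in CAL-27 and 1139 and 994 in SCC-15. KRT6B is visible only in CAL-27, and the KRT14 segment is widest in SCC-15 controls.

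Pseudogenes bear on KRT16 most. The table lists 6 pseudogenes of KRT16 and 8 of KRT17, and 9 of the 14 had at least 10 counts in all. KRT16P1, KRT16P2, KRT16P3, KRT16P4, KRT16P5 and KRT16P6 together held 2.90% of the counts of KRT16 and its pseudogenes in CAL-27 controls and 2.72% with shTTK, but 51.0% and 43.7% in SCC-15. In SCC-15 most of these were from KRT16P6 (chromosome 17, 16817983 to 16822579). It had 0, 0 and 0 counts in CAL-27 controls and 5, 5 and 0 with shTTK. In SCC-15 it had 282, 306 and 322 counts in controls and 268, 210 and 225 with shTTK. No 75-base stretch of the KRT16 main transcript occurred in KRT16P6, while 25 of those of KRT14 did. KRT16 shared such stretches with KRT16P3 (93), KRT14 (84), KRT16P2 (42) and KRT16P1 (21). Whether the KRT16P6 counts include reads of KRT14 or KRT16 was not tested. KRT16P6 fell in SCC-15 with a log2 fold change of -0.38 ± 0.12 (edgeR adjusted p = 0.0143), and its groups did not overlap. Adding the pseudogene counts to KRT16 raised the log2 difference between control lines from 0.77 to 1.75 as given above, and turned the SCC-15 knockdown value from 0.06 to -0.13. KRT17P2, KRT17P4 and KRT17P5 had 16, 18 and 17 counts over all 12 libraries.

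Other epithelial keratins were read from a list of 21, of which 11 passed the filter on low counts. This list and the gene lists below were drawn up with earlier results of these data known. Genes were named from them mainly by the smallest adjusted p. Their counts of calls and p-values are a description, not independent tests. In CAL-27 3 were called higher (KRT1, KRT13 and KRT19) and 4 lower (KRT7, KRT8, KRT18 and KRT80), and in SCC-15 those 4 were called higher and 2 lower (KRT1 and KRT13). Over all genes 11.6% were called higher and 15.7% lower in CAL-27, and 13.4% and 14.3% in SCC-15. KRT1 passed the filter through SCC-15, and its CAL-27 call rests on 1 count over 3 control libraries and 12 counts over 3 shTTK libraries. KRT4 and KRT9 also had fewer than 30 counts over the 6 CAL-27 libraries. KRT8, a type II keratin of simple epithelia, fell from 1842 to 1146 CPM in CAL-27 (log2 fold change -0.68 ± 0.03, edgeR adjusted p = 3.2e-34) and rose from 831 to 1161 CPM in SCC-15 (0.48 ± 0.03, 5.3e-25). The difference between lines was 1.17 ± 0.04 (edgeR adjusted p = 4.5e-39), opposite in sign to that of the 8 members. KRT18, its type I partner, named after its values were seen, went from 667 to 455 CPM in CAL-27 and from 307 to 393 CPM in SCC-15, with a difference of 0.91 ± 0.04. KRT13, a type I keratin of the upper layers of the oral lining, rose from 0.670 to 2.31 CPM in CAL-27 (1.76 ± 0.20, edgeR adjusted p = 1.5e-10) and fell from 988 to 868 CPM in SCC-15 (-0.19 ± 0.03, 5.2e-07). The median log2 fold change of the 11 genes was -0.01 in CAL-27 and 0.09 in SCC-15. With DESeq2, or with a filter of 1 CPM in 3 libraries, the number called lower in SCC-15 was 1.

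Of 20 linkers and other keratin-binding proteins, 6 were called higher and 2 lower in CAL-27, and 8 higher and 3 lower in SCC-15 (all genes 11.6%, 15.7%, 13.4% and 14.3% in that order). PKP1, a desmosomal plakophilin, rose from 20.1 to 57.5 CPM in CAL-27 (1.51 ± 0.08, edgeR adjusted p = 4.1e-25) and was at 0.907 and 0.784 CPM in SCC-15 (-0.21 ± 0.32). DST, which encodes the hemidesmosomal linker BPAG1, rose in both lines, by 0.31 ± 0.03 in CAL-27 and 0.29 ± 0.03 in SCC-15 (edgeR adjusted p = 2.7e-12 and 1.8e-11). PKP3 fell by 0.16 in CAL-27 (edgeR adjusted p = 1.4e-04) and rose by 0.19 in SCC-15 (2.8e-06), and PKP2 fell by 0.33 in SCC-15 (1.0e-06) with a value of 0.07 in CAL-27. The list's medians were 0.06 in CAL-27 and 0.03 in SCC-15.

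Of 13 genes that anchor basal cells to the basement membrane or mark them, 9 were called higher and 0 lower in CAL-27, and 11 higher and 2 lower in SCC-15, where the shares of all genes in the same order were 11.6%, 15.7%, 13.4% and 14.3%. The medians were 0.33 and 0.19, against -0.01 and 0 over all genes. COL17A1, a hemidesmosomal collagen, rose from 396 to 749 CPM in CAL-27 (0.92 ± 0.03, edgeR adjusted p = 8.5e-41) and from 523 to 637 CPM in SCC-15 (0.28 ± 0.03, 4.1e-13). In SCC-15 it thus moved opposite to KRT5, KRT14 and KRT15. ITGA3, an integrin chain that binds laminin, fell by 0.29 in SCC-15 (edgeR adjusted p = 1.8e-13) and had a value of 0.04 in CAL-27.

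Among 35 transcription factors and related regulators of these keratin genes, 15 were called higher and 3 lower in CAL-27, and 8 higher and 6 lower in SCC-15, beside 11.6%, 15.7%, 13.4% and 14.3% of all genes. TP63, the transcription factor that maintains the basal state of stratified epithelia, rose from 224 to 479 CPM in CAL-27 (1.10 ± 0.03, edgeR adjusted p = 2.6e-43) and fell from 277 to 244 CPM in SCC-15 (-0.18 ± 0.03, 4.8e-06). The difference between lines was -1.28 ± 0.05 (edgeR adjusted p = 1.3e-37), and its direction in each line was that of KRT5, KRT14 and KRT15. JUN, an AP-1 subunit, rose by 0.22 in CAL-27 and 0.63 in SCC-15 (edgeR adjusted p = 2.6e-06 and 5.9e-16). CEBPB fell by 0.30 in CAL-27 (4.5e-11) and rose by 0.31 in SCC-15 (4.3e-11), and NFKB1 fell by 0.39 in SCC-15 (edgeR adjusted p = 1.5e-10) with a value of -0.11 in CAL-27. The list's medians were 0.14 and 0.04. Without SCC-15 shTTK library 3, the number called lower in SCC-15 was 3.

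Genes of keratinocyte activation, which accompany KRT6, KRT16 and KRT17 in wounded or inflamed epithelium, were read from a list of 28, of which 24 passed the filter. In CAL-27 13 were called higher and 4 lower, and in SCC-15 2 were called higher and 6 lower, beside 11.6%, 15.7%, 13.4% and 14.3% of all genes. The median log2 fold change in CAL-27 was 0.30. In SCC-15 10 of the 24 genes had fewer than 30 counts over 6 libraries and had passed the filter through CAL-27. No median is therefore given for that line, and nothing is read from its counts of calls. SPRR1A, 1 of the 2 genes called higher there, was among these 10, with 2 counts in controls and 17 with shTTK. The number called higher in SCC-15 was 1 without control library 1 or without both libraries numbered 1. S100A7, an antimicrobial calcium-binding protein, rose from 34.5 to 174 CPM in CAL-27 (2.33 ± 0.05, edgeR adjusted p = 2.0e-48) and was at a mean of 0.0386 CPM or less in SCC-15. SPRR1B, a cornified envelope precursor, rose in both lines from low levels, from 0.311 to 2.76 CPM in CAL-27 (3.13 ± 0.36, edgeR adjusted p = 4.2e-11) and from 0.942 to 3.14 CPM in SCC-15 (1.73 ± 0.29, 1.4e-06). IL1A, a cytokine released by injured keratinocytes, fell by 0.38 in CAL-27 and 0.44 in SCC-15 (edgeR adjusted p = 8.4e-14 and 3.9e-12). EGFR, a growth factor receptor, rose by 0.24 in CAL-27 (8.4e-11) and fell by 0.52 in SCC-15 (edgeR adjusted p = 2.3e-25).

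Genes with the pattern most like 3 of the members were found by Pearson correlation of log2 CPM over the 12 libraries, among 11032 genes with a mean of at least 5 CPM. Nearest to KRT14 were SLC7A5 (r = 0.998), FAT1 (0.998), SLC3A2 (0.993) and NFE2L1 (0.991). Nearest to KRT5 were SLC7A5 (0.989), ZMIZ1 (0.988), FAT1 (0.988) and PPARGC1B (0.979). Nearest to KRT6A were GPC1 (0.998), MCC (0.997), HAS3 (0.996) and NRP2 (0.995). The 12 points fall into 2 lines and 4 groups, so these values largely describe group levels, and no test was made.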

How the data were processed

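Poly(A) RNA was sequenced as stranded paired ends of 150 bases, per the labels' protocols. The values are counts per gene deposited by the authors; the submitters' processing notes name Trim Galore 0.6.6, STAR 2.7.7a, featureCounts 2.0.1 and build hg38, with no settings. Genes were filtered with filterByExpr (16946 kept) and fitted over all 12 libraries in 4 group means with edgeR 4.0.16 in R 4.3.3 (TMM, robust quasi-likelihood test, Benjamini-Hochberg adjustment over all tested genes, threshold 0.05), with 8 residual degrees of freedom. The fit was tested on simulated data. Each SE is the absolute log2 fold change divided by the square root of its quasi-likelihood F statistic. It can understate the uncertainty of large changes from few counts, such as those of KRT14 and KRT6B. Lengths, positions and sequences came from GENCODE 29.

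Members and lists were chosen with earlier results of these data known, so the calls and p-values of the lists are not independent tests. Genes named are the members, their pseudogenes with at least 10 counts, and TTK. From each list and knockdown contrast, the called gene with the smallest adjusted p in each direction was named. Also named are the 4 non-member genes most correlated with each of KRT14, KRT5 and KRT6A. KRT1, KRT4, KRT7, KRT9, KRT18, KRT19, KRT80 and SPRR1A were named after their values were seen, and cell type markers to describe their lists. Alternatives were other size factors, DESeq2 1.42.0, limma-voom 3.58.1, other filters, lines fitted alone, a replicate block, summed paralogs, other lengths and each library left out.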

Additional observations from a re-analysis of the deposited data

Results flagged for a closer look

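KRT5, KRT14 and KRT15 moved in opposite directions in the 2 lines, with every shTTK library above the controls in CAL-27 and every shTTK library below them in SCC-15. The difference of the log2 fold changes, SCC-15 minus CAL-27, was -1.39 for KRT5, -5.44 for KRT14 and -2.33 for KRT15. These values drew attention by the position of the libraries alone. The fit across all genes holds a term for this difference, but the genes were chosen with their changes in view, so the difference was not tested independently and no p-value is given.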

How the results depend on the processing

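Of 2231 values recomputed under an alternative, 2176 kept their direction and side of the threshold or, with no test, stayed within the spread between libraries. Among the rest 14 reversed, 23 lost a call, 7 gained one and 11 moved. Those 11 were 6 type II shares, which moved by more than their spread, and 5 numbers of genes called in a list. The type II share with exon lengths replaced by coding length, an alternative chosen after seeing the data, was 70.3% in CAL-27 controls, 64.9% in CAL-27 with shTTK and 59.3% in SCC-15 with shTTK. With the longest transcript it was 67.4% in CAL-27 with shTTK, 59.2% in SCC-15 controls and 59.3% in SCC-15 with shTTK. Values near 0 reversed sign. In SCC-15, KRT6C was 0.0038 with no count filter, 0.20 without both libraries numbered 1 and -0.076 to 0.10 with 1 library left out. KRT16 there was -0.13 with pseudogenes added and -0.0042 to 0.15 with 1 library left out, KRT6B ran from -0.14 to 0.18 and PKP1 from -0.60 to 0.076. The difference of changes for DST was 0.029 without both libraries numbered 1 and -0.048 to 0.0047 with 1 left out, and KRT6C between control lines ran from -0.035 to 1.15. The difference of changes for S100A7 (-4.98) and SPRR1B (-1.40) lost its call in several alternatives. S100A7 had 2 counts in SCC-15 controls and 0 with shTTK, so its difference gives no information on a change in SCC-15.

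Same-numbered libraries did not deviate together (correlations of -0.025 to 0.021), so no pairing by number was seen. With 3 libraries per group this cannot show whether the numbers mark paired cultures or runs. With a replicate block, 8 members were called in CAL-27, 4 in SCC-15, 7 for the difference and 7 between control lines, as without it. With single libraries left out, the calls ranged from 7 to 8 in CAL-27, 3 to 5 in SCC-15, 7 to 8 for the difference and 7 to 8 between lines. KRT6B and KRT6C in SCC-15 rest on 66 to 73 counts per group, which limits their precision.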
